A study of Mus musculus with 18 samples.

Results

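The 9 immediate early genes *Fos*, *Fosb*, *Jun*, *Junb*, *Egr1*, *Ier2*, *Atf3*, *Dusp1* and *Zfp36* were followed through bulk RNA-Seq of embryonic mouse lungs. They were chosen by symbol, as genes whose transcripts are known to respond to handling at dissection, and are 9 of the 23420 genes listed in each of 3 tables. The series holds 18 libraries of whole lungs in 3 experiments, with 3 libraries from mutants and 3 from controls in each. The *Vangl1/2* experiment compared Vangl1-/-; Vangl2-/- lungs with Vangl1-/- lungs at E12.5, so both groups were homozygous for a gene trap of *Vangl1* and differed in *Vangl2*, lost in all tissues. The *Dermo1-Cre* experiment compared Wnt5af/f; Dermo1Cre with Wnt5af/+; Dermo1Cre lungs at E12.5. The *Sox9-Cre* experiment compared Wnt5af/f; Sox9Cre with Wnt5af/+; Sox9Cre lungs at E13.5. Both groups of each *Wnt5a* experiment carried the Cre, and the controls were heterozygous for the floxed allele. *Dermo1-Cre* acts in the mesenchyme and *Sox9-Cre* in the epithelium, so the mutants kept *Wnt5a* in the other compartment, and whole lungs of either kind hold both. The number of embryos behind each library is not given in the sources used here, and the p-values measure the spread between these libraries, which may be technical.

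Immediate early genes are switched on within minutes of a stimulus, from factors already present in the cell, and their mRNAs are short-lived. MAP kinases act on the serum response factor (SRF) and its ETS partners and on CREB, which bind CArG boxes and cAMP response elements (CREs). FOS and JUN proteins then pair as the AP-1 transcription factor, while DUSP1 and ZFP36 end the response. Cutting, warming or dissociating a tissue is known to induce the same genes, so their level is often read as a record of how tissue was handled.

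The stretches upstream of 3 members are shown because they hold CRE or CArG motifs of this pathway or, for *Fos*, a CRE half-site and a TATA box. They are the 150 bases before the annotated start in RefSeq (GRCm38.p6), 5′ to 3′ on the strand of the gene, with the motifs in capitals.
Fos (chr12:85473740-85473889, plus strand): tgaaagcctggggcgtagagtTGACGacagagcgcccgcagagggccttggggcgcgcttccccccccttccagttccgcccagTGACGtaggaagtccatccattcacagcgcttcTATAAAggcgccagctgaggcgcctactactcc
Dusp1 (chr17:26508473-26508622, minus strand): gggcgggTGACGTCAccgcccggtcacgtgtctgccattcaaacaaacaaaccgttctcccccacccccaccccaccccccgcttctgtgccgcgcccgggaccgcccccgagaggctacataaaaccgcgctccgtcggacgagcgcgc
Zfp36 (chr7:28379229-28379378, minus strand): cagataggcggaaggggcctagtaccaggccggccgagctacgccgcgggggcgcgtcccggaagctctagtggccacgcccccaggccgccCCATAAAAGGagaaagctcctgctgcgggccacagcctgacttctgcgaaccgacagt

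RefSeq promoters were matched for 7 of the 9 members, all but *Egr1* and *Ier2*, and 250 bases before the start were searched in them and in all 32851 promoters. The full CRE (TGACGTCA, either strand) lay only in *Dusp1* among the 7, from 143 to 136 bases before the start, and in 1.55% of all promoters. Its first 5 letters (TGACG, either strand), which occur on both strands of a full CRE, were found in 5 members (*Fos*, *Fosb*, *Junb*, *Atf3* and *Dusp1*) and in 17.8% of promoters. *Fos* held TGACG in 2 places, of which the nearer ends 62 bases before the start. The CArG box lay in *Zfp36*, 58 to 49 bases before the start, and in 1.47% of promoters. TATAAA on the strand of the gene lay in *Fos*, 33 to 28 bases before the start, and in 7.59% of promoters. The AP-1 motif (TGANTCA, either strand) was in none of the 7 windows and in 6.75% of promoters. A match describes the letters in this window and no binding.

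The values are normalized counts, the reads on a gene divided by a size factor of the library. Between 15945393 and 19814346 reads lay on genes per library. *Vangl2* had 277 to 406 normalized counts in its controls and 79.8 to 89.6 in the mutants (log2 fold change −1.96, adjusted p = 0.0318, limma). *Vangl1*, trapped in both groups, still had 113 to 219 in controls and 239 to 274 in mutants (log2 fold change 0.65, adjusted p = 0.233). *Wnt5a* overlapped between the groups of both of its experiments, with 430 to 489 in *Dermo1-Cre* controls against 230 to 436 in mutants, and 426 to 473 against 362 to 448 with *Sox9-Cre*. These counts cover the whole gene, floxed exon or not. Control replicate 2 of the *Vangl1/2* experiment stood apart from its group. Across 13437 genes, the deviation of a library from the mean of its table was correlated with the exon bases of the gene at a Spearman coefficient of −0.57 and −0.50 in control replicates 1 and 3, but at 0.30 in control replicate 2, beside 0.37 to 0.51 in the mutants. The *Vangl1/2* values of the tested members are therefore also given without control replicate 2 and with the trend on length removed, for *Ier2* and *Atf3* beside their values and for the others with the account of length. Genes are not independent replicates, and these coefficients carry no test.

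The members spanned a wide range of expression in these lungs. Per kilobase of exon and scaled to 1000000 reads on genes, their medians over the 18 libraries were 33.0 for *Jun*, 26.4 for *Ier2*, 4.07 for *Egr1*, 4.05 for *Dusp1*, 3.69 for *Junb*, 3.64 for *Zfp36*, 1.72 for *Atf3*, 0.468 for *Fos* and 0.0410 for *Fosb*. The *Jun* level was above that of 93.1% of 21751 genes with a length, and the *Ier2* level above 90.9%. The levels of *Egr1*, *Dusp1*, *Junb* and *Zfp36* were above 61.0% to 62.5% of genes, that of *Atf3* above 53.3%, that of *Fos* above 43.3% and that of *Fosb* above 30.3%. *Fos*, the member best known for its rise after handling, thus lay below the middle of these 21751 genes, at 8 to 36 reads per library. The 21751 include genes with no reads, since 16985 to 17517 genes had reads in each library. *Jun* and *Ier2* did not overlap in any of the 4 groups of *Wnt5a* lungs, but did in the *Vangl1/2* controls, where *Ier2* had a mean of 30.2 ± 3.59 (SD, n = 3) and *Jun* 29.6 ± 1.66. The order of *Atf3*, *Fos* and *Fosb* at the bottom held without overlap in all 6 groups, while *Dusp1*, *Zfp36* and *Junb* overlapped as neighbours in the *Wnt5a* controls.

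**Figure D1:**
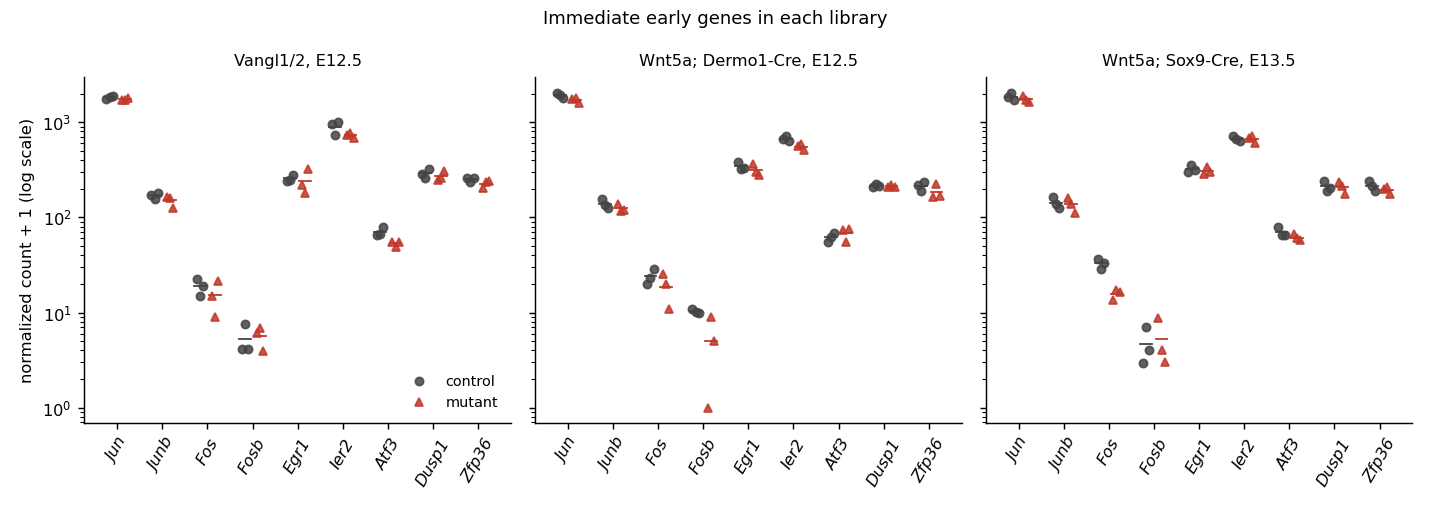
Normalized count plus 1 on a log axis for the 9 genes in each of the 18 libraries, 1 panel per experiment. Circles are controls, triangles are mutants and short lines are group means; *Jun* and *Ier2* lie highest, *Fos* and *Fosb* lowest, and the *Fos* groups are apart in the *Sox9-Cre* panel.

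Most members had slightly lower values in the mutants, and none passed the test. *Fosb* stayed under the filter of 10 normalized counts in 3 libraries, so that 8 of the 9 members were tested in each experiment. Of the resulting 24 log2 fold changes, 23 were below 0 and 1, that of *Atf3* in the *Dermo1-Cre* experiment, was above. Below 0 were 8 of 8 members in the *Vangl1/2* experiment (51.2% of all genes tested), 7 of 8 with *Dermo1-Cre* (49.7% of all genes) and 8 of 8 with *Sox9-Cre* (49.3% of all genes). The median of the members was −0.17, −0.15 and −0.078 in that order, beside −0.0093, 0.00071 and 0.0013 for all genes tested. By limma with an adjusted p under 0.05, 0 members were called in each experiment, where 0.00699%, 0.014% and 0% of all genes were. At an unadjusted p under 0.05, 0, 2 and 1 members were lower, where 8.56%, 4.76% and 2.81% of all genes were lower. At the same threshold 0 members were higher in each experiment, where 12%, 5.42% and 1.08% of all genes were higher. Every mutant library lay above every control for 0 members in each, and for 13.6%, 7.65% and 4.42% of all genes. The tested members thus mostly had the same sign at small sizes, with *Fos* in the *Sox9-Cre* lungs as the largest difference. With the trend on length removed, 5 of the 8 were below 0 in the *Vangl1/2* experiment. With *Sox9-Cre*, 5 of the 8 were below 0 without control replicate 1, and also 5 without mutant replicate 3. The members were measured in the same libraries, so their signs are not independent. On the recovered reads, edgeR's quasi-likelihood test also called 0 members at an adjusted p under 0.05. DESeq2 called 0 as well, but gave an adjusted p for only 2 of the 8 members (*Jun* and *Ier2*) in the *Vangl1/2* experiment, and for all 8 in the others. At an unadjusted p under 0.05 edgeR had 1, 2 and 1 lower, and DESeq2 0, 2 and 1. Of all 14303, 14277 and 14293 genes, edgeR had 2892, 1458 and 531 at that threshold in either direction. DESeq2 had 3028, 991 and 325.

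**Figure D2:**
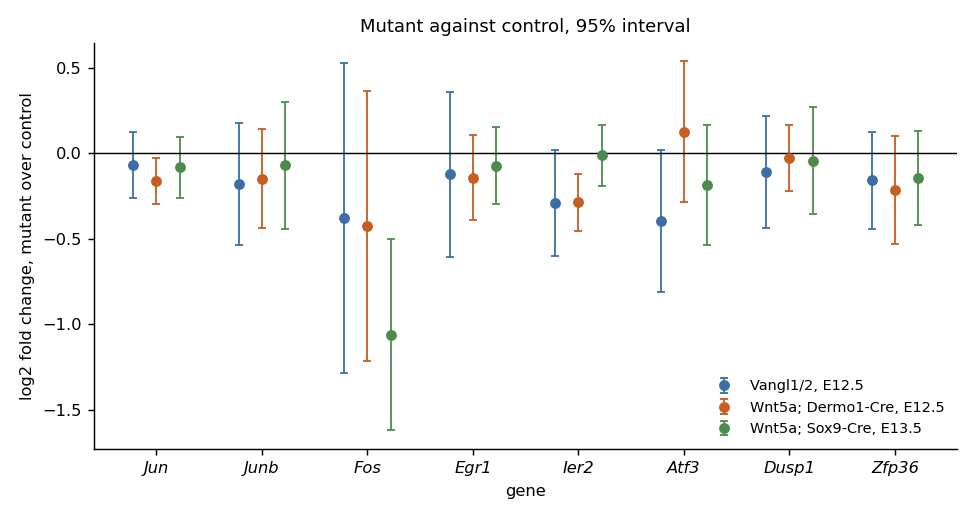
Log2 fold change of mutant over control for the 8 tested genes in the 3 experiments, with 95% intervals from limma. The intervals of *Ier2* and *Jun* with *Dermo1-Cre* and of *Fos* with *Sox9-Cre* lie below 0, before any adjustment for the number of genes; the other 21 cross 0.

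*Fos* encodes the bZIP partner of JUN in AP-1. With *Sox9-Cre*, its normalized counts were 35.7, 27.9 and 31.9 in control replicates 1 to 3 and 12.7, 16.1 and 15.4 in the mutants. Each mutant library lay below each control, as it did for 1 of the 8 members and for 4.36% of all genes in this experiment. The log2 fold change was −1.06 (SE 0.245, 95% interval −1.62 to −0.50, a difference of −52.1%), with an unadjusted p of 0.0022 and an adjusted p of 1.0 (limma). With 3 libraries a group, a two-sided exact permutation test of 1 gene cannot go below p = 0.1. The difference rests on few reads. The controls held 96 *Fos* reads in all (exact Poisson 95% interval 77.8 to 117) and the mutants 44 (32.0 to 59.1), intervals that cover counting error only. With each library left out in turn, the log2 fold change ran from −1.15 to −0.97.

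Markers of other cell types were compared between the same *Sox9-Cre* libraries, and 0 were called at an adjusted p under 0.05 (limma). The summed level of 6 cardiomyocyte markers was 2670, 4186 and 9598 normalized counts in the controls and 2600, 1116 and 207 in the mutants. In the same order of libraries, *Fos* had 35.7, 27.9 and 31.9 in the controls and 12.7, 16.1 and 15.4 in the mutants, at 13 to 36 reads each. The 3 macrophage markers found in the table (*Adgre1* was not matched) summed to 1115 to 1308 in controls and to 956 to 1071 in mutants, and 4 endothelium markers to 10561 to 10709 and 10247 to 10518. All 6 cardiomyocyte, all 3 macrophage and all 4 endothelium markers had log2 fold changes below 0. At an unadjusted p under 0.05, 4, 1 and 0 of them were lower, as were 2.81% of all genes. All 4 neuron markers were also below 0 (median −0.87), with sums of 538, 580.5 and 809 in controls and 762, 241 and 260.4 in mutants. So were the 3 tested erythroid markers (median −0.48), with sums of 20324 to 21887 and 15936 to 23188. The sums of both lists overlapped. The 3 tested skeletal muscle markers were below 0 (median −0.79). Of the 6 lung epithelium markers 5 were below 0 (median −0.069), and of the 6 lung mesenchyme markers 5 were above 0 (median 0.059). The part of these cell types in the *Fos* difference was not tested. In bulk RNA, fewer cells that express a gene and less of its RNA per cell cannot be told apart.

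In the other experiments *Fos* was more variable. With *Dermo1-Cre* it had 19.0, 22.1 and 27.7 normalized counts in controls and 24.2, 18.9 and 9.99 in mutants. The *Vangl1/2* controls had 21.7, 14.0 and 17.9 normalized counts and the mutants 14.1, 7.88 and 20.7. The groups overlapped in both, and 1 mutant library in each, replicate 3 and replicate 2 respectively, was the lowest. The log2 fold changes were −0.42 (SE 0.352, adjusted p = 0.700) and −0.38 (SE 0.394, adjusted p = 0.570), and without these libraries −0.083 and −0.039. The *Sox9-Cre* effect was not shown to differ from the others. In a fit of all 18 libraries, the *Vangl1/2* effect minus the *Sox9-Cre* effect was 0.68 (SE 0.475, unadjusted p = 0.170, limma) and the *Dermo1-Cre* effect minus the *Sox9-Cre* effect was 0.64 (SE 0.475, unadjusted p = 0.198). By level, in reads per 1000000 across tables that were scaled separately, *Fos* was highest in the *Sox9-Cre* controls (1.97 ± 0.246, SD, n = 3) and lowest in the *Vangl1/2* mutants (0.750 ± 0.343), and each group overlapped its neighbour in that order.

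*Fosb*, a *Fos* paralog, was the rarest member, at 0 to 10 reads per library, and the filter kept it from the main test. Without the filter, its log2 fold changes by limma were 0.12 in the *Vangl1/2* lungs and 0.13 with *Sox9-Cre*. The value for *Dermo1-Cre* was −1.54 (SE 0.70, adjusted p = 0.568, limma). With *Dermo1-Cre* the controls had 10.02, 9.03 and 8.92 normalized counts and the mutants 0, 7.94 and 3.99. Each mutant was below each control, on 28 reads in the controls (exact Poisson 95% interval 18.6 to 40.5) and 12 in the mutants (6.20 to 20.96). The library at 0, mutant replicate 1, allows up to 3 reads. The *Vangl1/2* controls had 3.10 to 6.52 normalized counts and the mutants 2.95 to 5.91, and with *Sox9-Cre* 1.98 to 5.97 and 2.05 to 7.81. The groups overlapped in both. With *Sox9-Cre* the controls held 11 *Fosb* reads (exact Poisson 95% interval 5.49 to 19.7) and the mutants 13 (6.92 to 22.2). These are too few to tell whether *Fosb* shared the order that *Fos* had there.

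*Jun* encodes the central JUN protein of AP-1. With *Dermo1-Cre* it had 2031, 1918 and 1796 normalized counts in controls and 1749, 1794 and 1596 in mutants. All mutants were below all controls, with a gap of only 1796 against 1794 between the nearest libraries. This held for 2 of the 8 tested members, *Jun* and *Ier2*, and for 7.92% of all genes. The log2 fold change of *Jun* was −0.16 (SE 0.060, 95% interval −0.30 to −0.026, unadjusted p = 0.024, adjusted p = 0.433). The unadjusted p rose to 0.098 without control replicate 1, to 0.062 without control replicate 2 and to 0.104 without mutant replicate 3. *Jun* in the *Vangl1/2* lungs had 1759 to 1901 in controls and 1721 to 1793 in mutants, and with *Sox9-Cre* 1695 to 2007 and 1639 to 1884, with groups that overlapped. These log2 fold changes were −0.069 (SE 0.084, adjusted p = 0.628) and −0.083 (SE 0.077, adjusted p = 1.0). The gene lies on the minus strand of chromosome 4 (95049034 to 95052222, GRCm38), and 232 of its 3189 exon bases (7.28%) are shared with the antisense gene *Junos*. The strand setting of the counting is not given in the sources used here, so reads from that stretch cannot be told apart.

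*Junb* encodes a JUN protein that is a weaker activator than JUN in AP-1. It had 170, 157 and 180 normalized counts in controls and 164, 161 and 125 in mutants of the *Vangl1/2* experiment. It had 155, 135 and 124 against 137, 116 and 120 with *Dermo1-Cre*. With *Sox9-Cre* the values were 165, 138 and 124 against 158, 139 and 111. The groups overlapped in all 3 experiments, and mutant replicate 3 was the lowest of its table in the *Vangl1/2* and *Sox9-Cre* lungs. The log2 fold changes were −0.18 (SE 0.154), −0.15 (SE 0.129) and −0.071 (SE 0.163), and the last became 0.039 without control replicate 1 and 0.068 without mutant replicate 3. *Junb* shares 173 exon bases (7.52%) with *Prdx2* on the opposite strand.

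*Egr1* encodes a zinc-finger factor induced through SRF. Its normalized counts in the *Vangl1/2* lungs were 243, 248 and 275 in controls and 218, 180 and 325 in mutants. The mutants held both the lowest and the highest library of the table, replicates 2 and 3, and spread 1.80-fold, against 1.13-fold in the controls. The log2 fold change was −0.12 (SE 0.209, adjusted p = 0.736), and became 0.063 without mutant replicate 2. With *Dermo1-Cre* the values were 383, 319 and 330 against 360.0, 300.7 and 277, and with *Sox9-Cre* 298, 354 and 312 against 286, 334 and 297. The groups overlapped again, with log2 fold changes of −0.14 (SE 0.112) and −0.072 (SE 0.098). In reads per 1000000, *Egr1* had a mean of 12.7 to 13.1 in the 2 groups of *Vangl1/2* lungs and of 18.8 to 21.4 in the 4 groups of *Wnt5a* lungs. The libraries of these experiments differ in genotype and table as well, which cannot be told apart here.

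*Ier2*, a short nuclear protein gene of the serum response, had the second smallest unadjusted p of the members. With *Dermo1-Cre* the controls had 661, 718 and 633 normalized counts and the mutants 559, 587 and 505. The highest mutant lay below the lowest control. The log2 fold change was −0.29 (SE 0.074, 95% interval −0.45 to −0.12, a difference of −18.0%), with an unadjusted p of 0.0035 and an adjusted p of 0.288. With each library left out in turn it ran from −0.33 to −0.23, and with the trend on length removed it was −0.24 (unadjusted p = 0.0093). In the same libraries the sum of 4 neuron markers was 186 to 348 normalized counts in controls and 452 to 1081 in mutants, with all 4 markers higher at an unadjusted p under 0.05. The sum of 6 lung epithelium markers was 11042 to 12085 and 10314 to 10486, with 5 of the 6 lower at that threshold. All 6 cardiomyocyte markers were below 0 (median −1.34), with sums of 272, 3433 and 10815 in controls and 1317, 1601 and 289 in mutants. So were all 4 endothelium markers, all 3 macrophage markers and 4 of the 6 mesenchyme markers. Of the 3 erythroid markers tested 1 was below 0 and 2 above, and the 2 skeletal muscle markers tested were above. The part of these cell types in the *Ier2*, *Jun* and *Fosb* differences was not tested.

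In the *Vangl1/2* lungs *Ier2* had 947, 733 and 1012 normalized counts in controls and 733, 769 and 680 in mutants. Control replicate 2 lay among the mutants and the other controls lay above them. The log2 fold change was −0.29 (SE 0.136, adjusted p = 0.257). Without control replicate 2 it was −0.43 (SE 0.086, adjusted p = 0.0028, limma), past the threshold, in a fit that called 6183 of the 14303 genes. With the trend on length removed it was 0.0012 (SE 0.079, adjusted p = 0.994). *Ier2* is the shortest member, with 1522 exon bases, and the direction of its *Vangl1/2* difference rested on that setting. With *Sox9-Cre* it had 634 to 707 in controls and 604 to 709 in mutants (log2 fold change −0.011, SE 0.078), with groups that overlapped.

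*Atf3* encodes a stress-induced bZIP protein that represses or activates with its partner. Its *Vangl1/2* controls had 64.0, 65.2 and 78.8 normalized counts and the mutants 54.3, 48.3 and 54.2. It was the 1 tested member of this experiment for which every mutant was below every control, as 8.68% of all genes were. The log2 fold change was −0.40 (SE 0.180, unadjusted p = 0.058, adjusted p = 0.250), −0.44 without control replicate 2 (adjusted p = 0.123) and −0.19 with the trend on length removed (adjusted p = 0.611). With *Dermo1-Cre* the values were 54.1, 61.2 and 67.4 against 72.6, 53.6 and 74.9. The mutants spread around the controls, with a log2 fold change of 0.13 (SE 0.184). With *Sox9-Cre* they were 77.3, 64.7 and 64.8 against 65.4, 59.3 and 56.4 (−0.19, SE 0.153), where 1 mutant overlapped the controls. The *Vangl1/2* effect minus the *Dermo1-Cre* effect was −0.52 (SE 0.222, unadjusted p = 0.031, adjusted p = 0.263), the smallest unadjusted p of the 24 tests between experiments, of which 0 passed an adjusted p under 0.05.

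Neither gene that ends the response separated the groups in any experiment. *Dusp1*, the gene of a phosphatase that removes phosphate from MAP kinases, had 208, 224 and 212 normalized counts in *Dermo1-Cre* controls and 206, 218 and 209 in mutants. Its log2 fold change there was −0.026 (SE 0.086). The *Vangl1/2* lungs had 287, 261 and 325 against 245, 256 and 309, and with *Sox9-Cre* 243, 190.2 and 204 against 232, 212 and 174. Groups overlapped throughout, with log2 fold changes of −0.11 (SE 0.142) and −0.043 (SE 0.137). *Zfp36*, whose protein marks AU-rich mRNAs such as that of *Fos* for decay, had 260.3, 235 and 257 in *Vangl1/2* controls and 203, 234 and 238 in mutants (−0.16, SE 0.124). With *Dermo1-Cre* it had 219, 188 and 233 against 164, 224 and 166 (−0.22, SE 0.141), and with *Sox9-Cre* 243, 214 and 188 against 199, 205 and 176 (−0.14, SE 0.120). In each experiment 1 or more mutant libraries lay within the range of the controls. *Dusp1* shares 11 exon bases with *Ergic1* and *Zfp36* shares 125 with *Gm44710*, both on the opposite strand.

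**Figure D3:**
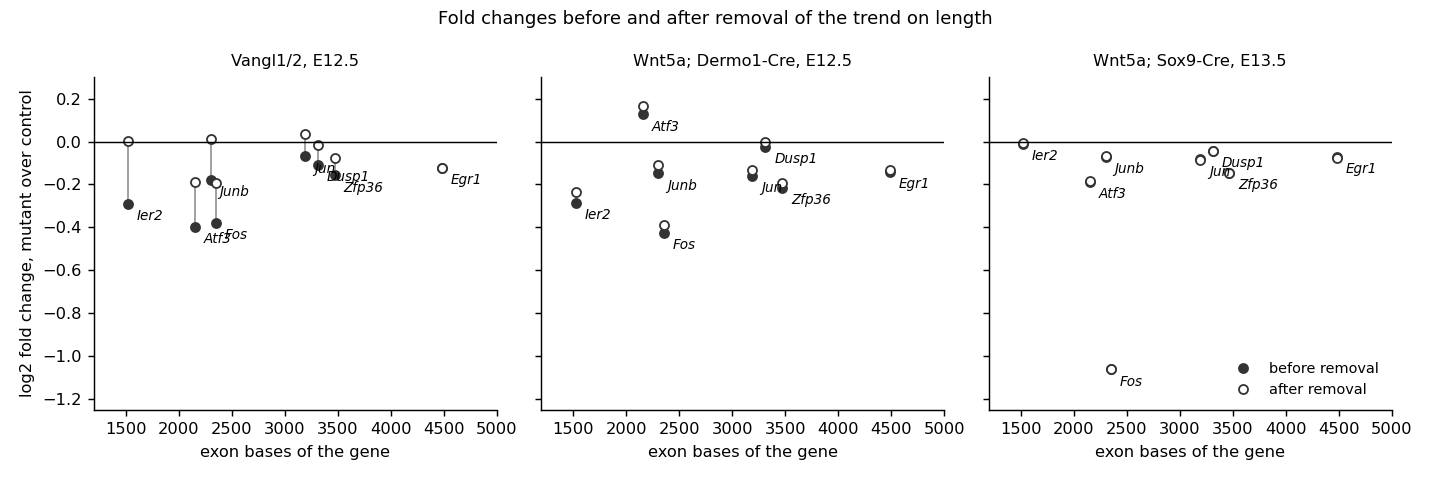
Log2 fold change of mutant over control against the exon bases of each of the 8 tested genes, 1 panel per experiment. Filled points are the values before and open points those after the trend of each library on length was removed; the points of short genes move up in the *Vangl1/2* panel, *Ier2* from −0.29 to 0.0012, and hardly move in the *Sox9-Cre* panel.

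The shared direction in the *Vangl1/2* experiment moved with gene length. The log2 fold changes of all genes were correlated with exon bases at a Spearman coefficient of 0.59, beside 0.24 with *Dermo1-Cre* and 0.0064 with *Sox9-Cre*. The members were short, with 7 of the 9 below the median of all genes tested (median of the members 3189 bases, of all genes 4466). With the trend removed, 5 of the 8 tested members were below 0 and 3 above (*Jun* 0.036, *Junb* 0.012 and *Ier2* 0.0012), and their median was −0.046. The others then had log2 fold changes of −0.20 for *Fos*, −0.12 for *Egr1*, −0.19 for *Atf3*, −0.015 for *Dusp1* and −0.077 for *Zfp36*. The same step left the *Dermo1-Cre* median at −0.13 and the *Sox9-Cre* median at −0.081, with 7 and 8 members below 0. Leaving out control replicate 2 instead moved the *Vangl1/2* median to −0.22, with *Fos* at −0.54, *Jun* at −0.066, *Junb* at −0.23, *Egr1* at −0.14, *Dusp1* at −0.18 and *Zfp36* at −0.20.

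Single libraries were also compared. Over the 8 tested members, the controls were never the lowest library of a table for any member. In the *Sox9-Cre* experiment control replicate 1 was the highest for 5 members and mutant replicate 3 the lowest for 6. In the *Vangl1/2* experiment control replicate 3 was the highest for 5 and mutant replicate 2 the lowest for 4, and with *Dermo1-Cre* mutant replicate 3 was the lowest for 4. Without *Sox9-Cre* control replicate 1, 5 of the 8 members were below 0, and without mutant replicate 3 also 5, so that the shared sign there rested on these 2 libraries. Within groups, the median SD of the members on the log2 scale was 0.168 in the *Vangl1/2* lungs, beside 0.188 for all genes. Both values include control replicate 2, which stood apart from its group, so the 2 cannot rank the members as steady there. It was 0.157 beside 0.0973 with *Dermo1-Cre* and 0.141 beside 0.115 with *Sox9-Cre*.

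**Figure D4:**
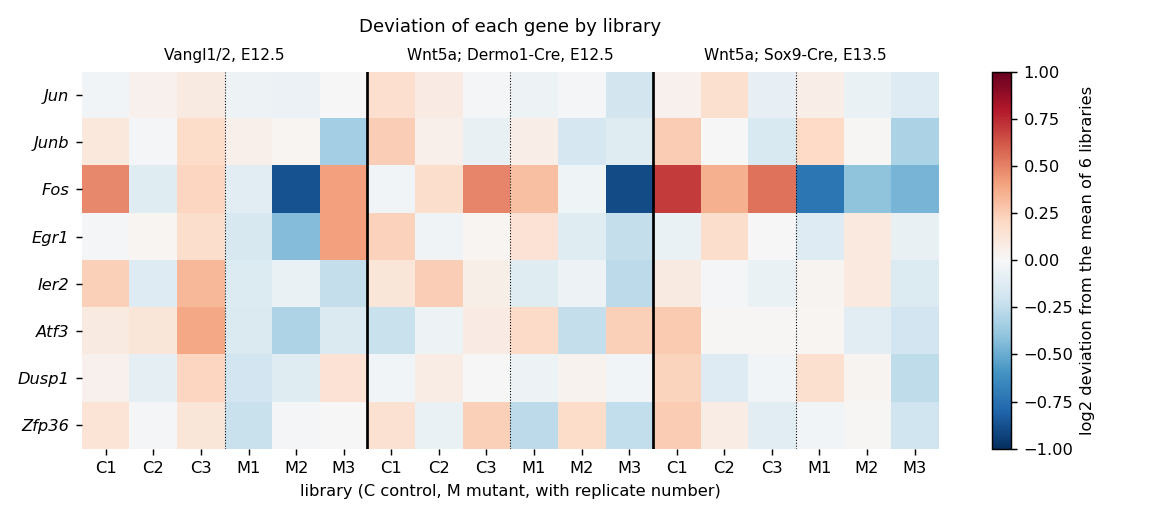
Deviation of each of the 8 tested genes (rows) from its mean over the 6 libraries of its table, on the log2 scale, in the 18 libraries (columns; C control, M mutant). Red is above and blue below the mean; *Fos* has the deepest colours, with controls red and mutants blue in the *Sox9-Cre* block.

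The members varied with each other to differing degrees. Over the 18 libraries, each taken as its deviation from its group mean, the Pearson correlation of a member with the mean of the other 7 ran from 0.130 for *Junb* to 0.636 for *Dusp1*. The 6 genes most like the mean of the 8 members, among 11086 candidates, were *Arfip2* (r = 0.890), *2610044O15Rik8* (0.863), *Ptdss1* (0.832), *Abhd10* (0.825), *Nudcd3* (0.804) and *Prune* (0.798). None is on the lists of early response genes used here. Among those of the 42 further early response genes that were candidates, the best was *Btg1* (0.625), at rank 156. The 6 values are the highest of 11086, so they cannot be set against those of the members. The mean was taken of unscaled deviations. Members that vary most, such as *Fos* in the *Vangl1/2* and *Dermo1-Cre* lungs, therefore weigh most in it. These correlations describe libraries that share tables and groups and have no test.

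The wider response was followed in a further list. Of 42 further early response genes, 38, 39 and 39 were tested in the *Vangl1/2* experiment and those with *Dermo1-Cre* and *Sox9-Cre*, and 0 were called at an adjusted p under 0.05. Their log2 fold changes were below 0 for 22, 30 and 29, with medians of −0.020, −0.069 and −0.060, where 51.2%, 49.7% and 49.3% of all genes were below 0. At an unadjusted p under 0.05, 2, 4 and 0 were lower and 0, 1 and 0 higher. Of all genes, 8.56%, 4.76% and 2.81% were lower and 12%, 5.42% and 1.08% higher. Every mutant lay below every control for 6, 7 and 1 of the list, and for 8.68%, 7.92% and 4.36% of all genes. Every mutant lay above every control for 0 of the list in each experiment. *Klf2*, an endothelial zinc-finger gene that responds to flow, had 373, 305 and 384 normalized counts in *Vangl1/2* controls and 259, 261 and 221 in mutants (log2 fold change −0.51, adjusted p = 0.233). *Gadd45b*, a stress gene, had −0.51 there (adjusted p = 0.241). The *Vangl1/2* values of this list were not corrected for the trend on length, and control replicate 2 was the *Klf2* control nearest the mutants. With *Dermo1-Cre*, the clock gene *Per1* had 527, 534 and 510.3 against 462, 447 and 461 (−0.20, adjusted p = 0.340) and the growth inhibitor *Btg2* 913, 829 and 857 against 819, 740.3 and 707 (−0.20, adjusted p = 0.405). With *Sox9-Cre* the smallest p-values were those of *Klf2* (−0.22) and *Btg2* (−0.13). The groups of these named genes overlapped only for *Klf2* with *Sox9-Cre*. The genes were named for their small p-values, so groups that lie apart say nothing further about the list.

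The regulators above the response lay mostly above 0 in both experiments at E12.5. All 14 were tested in each experiment, and 0 were called. Their log2 fold changes were above 0 for 10, 11 and 6 of them, with medians of 0.070, 0.041 and −0.0050. Of all genes, 51.2%, 49.7% and 49.3% were below 0. Every mutant lay above every control for 4, 2 and 0 of the 14, and for 13.6%, 7.65% and 4.42% of all genes. Of them, 3 were higher in the *Vangl1/2* lungs at an unadjusted p under 0.05, where 12% of all genes were. Among the 3 were the ETS partner *Elk4* (log2 fold change 1.08) and the SRF coactivator *Mkl2* (0.68), both at an adjusted p of 0.233. With *Dermo1-Cre* 2 were lower and 1 higher, where 4.76% and 5.42% of all genes were. *Srf* itself had 2192, 2304 and 2231 normalized counts in controls and 1827, 1916 and 2149 in mutants (−0.19, adjusted p = 0.356). Its coactivator *Mkl1* was at −0.13 (adjusted p = 0.481). With *Sox9-Cre* 0 passed even the unadjusted threshold, and *Elk1* (0.14) and *Mkl1* (−0.096) came nearest.

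Other lists tied to handling gave no call. Of all genes tested in the 3 experiments, 51.2%, 49.7% and 49.3% were below 0. At an unadjusted p under 0.05, 8.56%, 4.76% and 2.81% of all genes were lower and 12%, 5.42% and 1.08% higher (limma). Of 14 heat shock genes, 12, 6 and 4 were below 0 in the 3 experiments, and 2, 0 and 0 were lower at an unadjusted p under 0.05 with 0 higher. The chaperone *Hspe1* had a log2 fold change of −0.51 in the *Vangl1/2* lungs and *Hspa8* −0.32 (adjusted p = 0.233 and 0.243). *Dnaja1* had 0.14 and *Hspe1* −0.10 with *Dermo1-Cre*, and *Hsp90aa1* 0.13 and *Hspd1* 0.088 with *Sox9-Cre*. Of 14 hypoxia response genes, 7, 12 and 4 were below 0, with 0, 2 and 1 lower and 1, 0 and 2 higher at an unadjusted p under 0.05. With *Dermo1-Cre* the glucose transporter gene *Slc2a1* had 1240, 1314 and 1340 normalized counts in controls and 1116, 1125 and 1006 in mutants (−0.26, adjusted p = 0.198), and *Ddit4* had −0.23 (adjusted p = 0.351). *Hk2* had 0.40 and *Adm* 0.51 in the *Vangl1/2* lungs (adjusted p = 0.233 and 0.270). With *Sox9-Cre*, *Pgk1* had 0.19 and *Adm* −0.76 (adjusted p = 1.0 for both). The direction of these 2 lists thus differed between experiments in count, a difference that was not tested. The *Vangl1/2* values of the further early response genes, of the regulators and of these lists were not corrected for the trend on length.

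The lung label was checked against markers. The 6 lung epithelium markers and the 6 lung mesenchyme markers were above 0 in every library, with sums of 9062 to 12085 and of 22500 to 51041 normalized counts. All 6 mesenchyme markers had log2 fold changes above 0 in the *Vangl1/2* lungs (median 0.37), 3 of them at an unadjusted p under 0.05. Their sums were 30471, 51041 and 22500 in the controls and 38324, 49928 and 43624 in the mutants, with control replicate 2 the highest library. The part of this in the lower values of the members there was not tested. In the *Vangl1/2* lungs, the sums of 4 endothelium markers (7941 to 10254 in controls, 9686 to 10589 in mutants), 3 macrophage markers (811 to 921 and 756 to 1090), 6 cardiomyocyte markers (740 to 2113 and 210 to 4092) and 4 neuron markers (211 to 378 and 323 to 549) overlapped. Of 5 erythroid markers 3 were tested, with *Hba-a1* at 0 in every library and *Hbb-bt* not matched, and the sums overlapped in each experiment. Skeletal muscle markers summed to 10.1 to 730.4 and overlapped in all 3 experiments. The other sums of the *Wnt5a* experiments, beyond those given above, also overlapped between the groups.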

How the data were processed

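Bulk RNA-Seq of embryonic lungs was deposited as 1 table per experiment, with 23420 genes by symbol. Per the labels, lungs were snap frozen and RNA was purified on RNeasy columns. The submitters' processing notes name Trim Galore, HISAT2, featureCounts, DESeq2 and mm10, and the strand setting and annotation are not given in the sources used here. The authors deposited, per library, a signal that is the gene count divided by a size factor computed within the table, and its mean over the 6 libraries. The log2 fold changes and p-values of the authors' own comparison were also deposited and were not used. In all columns, 100% of values were whole multiples of 1 step (tolerance 0.001 reads, largest deviation 4.8e-05), so the reads were recovered. Between 15945393 and 19814346 reads per library set the precision, and the Poisson intervals of summed reads cover counting error only, while those of log2 fold changes come from limma and the spread between libraries.

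The members and all lists were chosen with earlier results of these data known. Groups came from the titles and genotypes. In each table, genes with at least 10 normalized counts in 3 libraries were tested by limma (version 3.58.1, R 4.3.3) with a mean-variance trend on log2(normalized count + 1), a scale that understates the change of low genes, and adjusted over 14303, 14277 and 14293 genes by the Benjamini-Hochberg method at 0.05. Effects were compared between experiments in a limma fit of 13980 genes. Alternatives were edgeR (4.0.16) and DESeq2 (1.42.0) on recovered reads, TMM scaling, no filter, a pseudocount of 5, removal of each library's trend on length, a replicate block and each library left out. The procedure was tested on simulated data. Exon bases, loci and overlaps came from GENCODE M21, which gave a length for 92.9% of names. Promoters came from RefSeq (GRCm38.p6). The genes named were the members, in each list of early response, regulator, heat shock and hypoxia genes the 2 with the smallest p where none passed, and the 6 genes with deviations most like the members among those with a mean of at least 100. Marker lists are given as summed levels. Python (3.11.15) and matplotlib (3.10.9) were used for the figures.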

Additional observations from a re-analysis of the deposited data

How the results depend on the processing

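The 24 log2 fold changes of the members were recomputed under 13 alternatives each, 312 values in all, of which 6 (DESeq2, *Vangl1/2* lungs) had no adjusted p. Of the other 306, 294 kept their direction and their side of the threshold, 11 changed sign and 1 passed the threshold. With the trend on transcript length removed, *Jun* (0.036), *Junb* (0.012) and *Ier2* (0.0012) of the *Vangl1/2* lungs changed sign. With 1 library left out, the ranges that crossed 0 were those of *Egr1* in the *Vangl1/2* lungs (−0.36 to 0.063), *Dusp1* with *Dermo1-Cre* (−0.051 to 0.0042), and *Dusp1* (−0.13 to 0.073), *Ier2* (−0.061 to 0.054) and *Junb* (−0.19 to 0.068) with *Sox9-Cre*. The cause was not tested. The number of members called ranged from 0 to 1 in the *Vangl1/2* lungs, the 1 being *Ier2* without control replicate 2, and was 0 in the others. Of all genes, limma called 1, 2 and 0 in the 3 experiments, DESeq2 11, 101 and 9, and limma without *Vangl1/2* control replicate 2 called 6183. Leaving out 1 library, the medians of the members ranged from −0.23 to −0.13, −0.20 to −0.091 and −0.16 to −0.046.

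Replicate numbers were shared between groups. The deviations of same-numbered libraries were correlated at 0.30, 0.049 and 0.013 in the *Vangl1/2* experiment. The values were 0.073, −0.073 and −0.22 with *Dermo1-Cre* and 0.053, 0.13 and −0.12 with *Sox9-Cre*. Replicate 1 of the *Vangl1/2* experiment thus deviated together to some degree, and the others were weakly correlated or below 0. With a replicate block, limma called 0 members in each experiment and 0, 16 and 0 genes in all, with medians of −0.17, −0.15 and −0.078. Depth limits *Fos* and *Fosb* most, at 36 reads or fewer per library.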
